A study of Mus musculus with 18 samples.

Results

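The genes described here are the secreted frizzled-related proteins Sfrp1, Sfrp2, Sfrp5 and Frzb, the Dickkopf family member Dkk3 and the ligand Wnt9a, 6 genes among 35560 that the deposited tables of both sequencing batches share. They were taken by gene name, and the set was chosen after Sfrp2 and Dkk3 had been seen among the largest differences between hearts given 100 nm particles and hearts given isoproterenol alone. All 6 genes had enough counts to be among the 14623 genes tested.

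RNA was measured in hearts of wild-type male C57BL/6 mice in 3 groups of 6 libraries: isoproterenol with 100 nm polystyrene particles (ISO+100 nm PS), isoproterenol with 1 µm polystyrene particles (ISO+1 µm PS), and isoproterenol alone (ISO). Isoproterenol, a beta-adrenergic agonist that stresses the heart, was injected subcutaneously in PBS in every mouse at 2.5 mg/kg/day, and the polystyrene (PS) groups had 50 mg/kg/day of particles by gavage where the ISO group had water, all over 21 days. There were no mice without isoproterenol, so none of these values can be set against an unstressed heart, and the ages of the mice are not given in the sources used here. Batch 1, as the labels name the sequencing provider, held 5 libraries of ISO+100 nm PS, 4 of ISO+1 µm PS and 3 of ISO, and batch 2 held 1, 2 and 3.

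Wnt proteins are secreted ligands that bind Frizzled receptors with the co-receptors Lrp5 and Lrp6, and in the branch that runs through beta-catenin they keep that protein from being degraded so that it can act with TCF and LEF factors on target genes. Secreted frizzled-related proteins carry a Frizzled-like cysteine-rich domain and can bind Wnts outside the cell, while classical Dickkopf proteins bind the Lrp co-receptors. In the adult heart the pathway is known for its part in fibroblast activation and scar formation, and secreted frizzled-related proteins are made largely by fibroblasts there.

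Total counts ran from 14032257 to 22600570 per library. Heart muscle was present in every library, with summed levels of 7 ventricular myocyte markers from 28200 to 63800 CPM (counts scaled to a fixed library size) in ISO+100 nm PS, from 32500 to 86000 CPM in ISO+1 µm PS and from 15600 to 72000 CPM in ISO. ISO+100 nm PS replicate 1 stood apart by its atrial myosin light chains, with 573 CPM of Myl4 and 351 CPM of Myl7, against at most 5.90 CPM of Myl4 and 5.51 CPM of Myl7 in any other library. ISO replicate 2 had 554 CPM of 8 summed endothelial markers, while the other 5 libraries of ISO had 1250 to 1910 CPM, and ISO replicate 1 had the lowest ventricular sum. The labels do not say that the replicate numbers link mice, and each library was taken as 1 mouse.

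RefSeq upstream sequence (build GRCm38.p6) was found for 4 of the 6 genes, Sfrp2, Sfrp5, Frzb and Wnt9a. The 250 bases before the annotated start are shown for Sfrp2, for its relative Sfrp5 and for Wnt9a, the ligand of the set. Sfrp2 is a gene whose difference at 100 nm led to the choice of the set. Sfrp5 is the member with the fewest reads per length. Capitals mark an octamer in Sfrp2 (chr3:83766071-83766320, plus strand), a GC box in Sfrp5 (chr19:42202253-42202502, minus strand), and an E-box followed by GC boxes in Wnt9a (chr11:59306680-59306929, plus strand).
Sfrp2: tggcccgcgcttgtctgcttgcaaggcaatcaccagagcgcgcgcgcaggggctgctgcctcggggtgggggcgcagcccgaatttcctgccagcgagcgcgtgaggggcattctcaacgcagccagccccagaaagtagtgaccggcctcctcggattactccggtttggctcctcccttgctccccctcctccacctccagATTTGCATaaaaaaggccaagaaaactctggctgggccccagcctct
Sfrp5: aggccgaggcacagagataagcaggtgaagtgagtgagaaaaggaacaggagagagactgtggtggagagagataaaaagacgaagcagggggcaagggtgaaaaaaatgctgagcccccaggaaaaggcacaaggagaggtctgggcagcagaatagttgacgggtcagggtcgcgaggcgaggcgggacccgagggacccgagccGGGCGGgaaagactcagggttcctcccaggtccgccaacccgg
Wnt9a: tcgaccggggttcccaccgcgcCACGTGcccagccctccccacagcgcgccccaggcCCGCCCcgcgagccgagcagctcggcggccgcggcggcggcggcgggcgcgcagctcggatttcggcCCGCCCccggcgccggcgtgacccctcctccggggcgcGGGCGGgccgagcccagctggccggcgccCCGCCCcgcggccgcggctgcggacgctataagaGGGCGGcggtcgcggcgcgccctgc
The octamer ATTTGCAT starts 47 bases before the Sfrp2 start, and 1.60% of 32851 promoter windows of the same span hold it on either strand. The E-box CACGTG starts 228 bases before the Wnt9a start and occurs in 6.02% of the windows. The GC box GGGCGG, read on both strands, occurs 5 times before Wnt9a and 1 time before Sfrp5, and 32.7% of the windows hold at least 1. Neither TCF/LEF motif searched (ATCAAAG in 3.21% of the windows, TTCAAAG in 4.46%), the AP-1 motif TGANTCA (6.75%) nor the TATA box TATAAA (12.4%) was found in the 250 bases of any of the 4 genes, on either strand. None of the motifs overlapped another. GC content was 84.4% before Wnt9a, 63.6% before Sfrp2 and 59.6% before Sfrp5, against a median of 52.4% over the windows.

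Sfrp2, which besides binding Wnts has been reported in mouse to enhance fibrillar procollagen processing by the protease Bmp1, was low in ISO hearts. It was higher in most hearts given particles. Its level was 5.66, 25.9 and 52.2 CPM (lowest, median and highest library) in ISO+100 nm PS, 5.0, 9.31 and 21.6 CPM in ISO+1 µm PS, and 1.54, 3.45 and 5.79 CPM in ISO. In ISO+100 nm PS 5 of 6 libraries, and in ISO+1 µm PS likewise 5 of 6, lay above the whole ISO range. ISO+100 nm PS replicate 5 and ISO+1 µm PS replicate 5 lay inside it. The means were 26.3 ± 16.8 CPM in ISO+100 nm PS, 12.0 ± 7.42 CPM in ISO+1 µm PS and 3.60 ± 1.81 CPM in ISO (SD, n = 6 each). In whole-heart RNA more cells of a type and more RNA per cell cannot be told apart, for Sfrp2 or for any gene below.

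Dkk3, a divergent Dickkopf protein whose effect on Wnt signalling differs between cell types, had the widest spread of the set. Its level was 6.31, 19.0 and 139 CPM (lowest, median and highest library) in ISO+100 nm PS, 3.12, 13.1 and 26.6 CPM in ISO+1 µm PS, and 2.45, 3.89 and 8.32 CPM in ISO. The highest value, 139 CPM, belongs to ISO+100 nm PS replicate 1, and the next highest library of that group had 37.2 CPM. In ISO+100 nm PS 5 of 6 libraries and in ISO+1 µm PS 4 of 6 were above the ISO range, and the 2 libraries of ISO+1 µm PS inside it were those of batch 2. ISO+1 µm PS replicate 6, with 3.12 CPM, was below the batch 2 mean of ISO, 6.24 CPM.

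Sfrp1, which is known to bind several Wnts and to limit scarring in the injured mouse heart, had the highest level per length in ISO hearts. It stood at 18.1, 36.5 and 56.0 CPM (lowest, median and highest) in ISO+100 nm PS, 16.0, 20.5 and 45.9 CPM in ISO+1 µm PS, and 9.65, 16.1 and 28.0 CPM in ISO. ISO+100 nm PS replicates 1 to 4 and ISO+1 µm PS replicates 1 and 2 exceeded every ISO library, and the other libraries of both particle groups overlapped with ISO. Frzb, also called Sfrp3 and first known as a cartilage protein that binds Wnts, stood at 5.86, 15.7 and 24.7 CPM in ISO+100 nm PS, 5.24, 9.96 and 20.9 CPM in ISO+1 µm PS, and 2.09, 5.62 and 13.5 CPM in ISO. The same 4 libraries of ISO+100 nm PS lay above its ISO range, and 1 of ISO+1 µm PS, replicate 1.

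Sfrp5, known as a factor secreted by fat cells that binds Wnt5a, was the scarcest of the set. It stood at 1.17, 1.5 and 6.57 CPM (lowest, median and highest) in ISO+100 nm PS, 0.323, 1.18 and 2.28 CPM in ISO+1 µm PS, and 0, 0.949 and 2.19 CPM in ISO. The groups overlapped except for ISO+100 nm PS replicate 1 and ISO+1 µm PS replicate 6, which were above the ISO range. Wnt9a, a ligand known from mouse joint and skull development, stood at 3.51, 5.46 and 6.96 CPM in ISO+100 nm PS, 3.83, 6.65 and 10.2 CPM in ISO+1 µm PS, and 0, 4.44 and 5.52 CPM in ISO. It was the only one of the 6 genes with a higher median in ISO+1 µm PS than in ISO+100 nm PS. ISO replicate 2 had no count of either gene, and a count of 0 there allows up to 0.232 CPM (3 counts, counting error only).

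**Figure D1:**
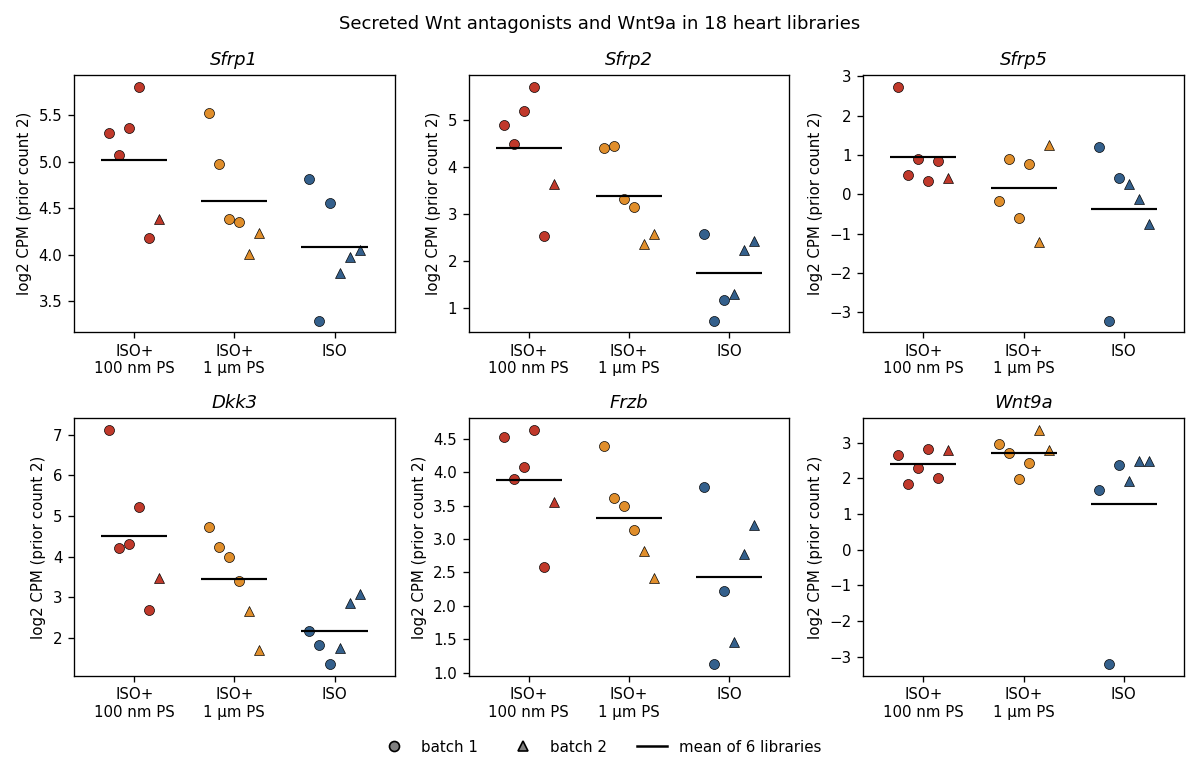
Level of each gene as log2 CPM with a prior count of 2 (y axis) in ISO+100 nm PS, ISO+1 µm PS and ISO hearts (x axis), with 1 point per library, circles for batch 1, triangles for batch 2 and a line at the mean of 6 libraries. Sfrp2 and Dkk3 have 5 of 6 ISO+100 nm PS libraries above the ISO range, Dkk3 has 1 library at 139 CPM, and ISO replicate 2 lies far below the rest for Sfrp5 and Wnt9a.

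Levels of different genes were compared only after division by transcript length. In ISO hearts the order was Sfrp1 at 4.09 ± 1.53 CPM per kilobase, Frzb at 2.04 ± 1.38, Sfrp2 at 1.80 ± 0.902, Dkk3 at 1.44 ± 0.703, Wnt9a at 1.15 ± 0.641 and Sfrp5 at 0.508 ± 0.392 CPM per kilobase (SD, n = 6). From Frzb down to Wnt9a, neighbours in that order differed by less than their SD. In ISO+100 nm PS hearts Sfrp2 and Dkk3 headed the order with 13.2 ± 8.40 and 11.5 ± 15.0 CPM per kilobase, ahead of Sfrp1 at 7.96 ± 3.22, Frzb at 5.11 ± 2.23, Wnt9a at 1.61 ± 0.454 and Sfrp5 at 1.20 ± 1.11. In ISO+1 µm PS hearts Sfrp2 at 6.00 ± 3.71 and Sfrp1 at 5.83 ± 2.59 CPM per kilobase came before Dkk3 at 4.01 ± 2.57, Frzb at 3.45 ± 1.77, Wnt9a at 2.02 ± 0.651 and Sfrp5 at 0.639 ± 0.409. In both particle groups each of the first 3 neighbouring pairs differed by less than the larger of its SDs.

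The fitted differences between ISO+100 nm PS and ISO chose the set and are given as a description. With batch as a term in edgeR's quasi-likelihood model, the log2 fold change was 2.54 for Dkk3 (SE 0.77) and 2.53 for Sfrp2 (SE 0.54), places 20 and 21 of 14623 when all genes are ordered by it. It was 1.12 for Sfrp5 (SE 0.69), 1.11 for Frzb (SE 0.44), 0.73 for Sfrp1 (SE 0.29) and 0.73 for Wnt9a (SE 0.51). On the log2 CPM scale, each library of ISO+100 nm PS was above the mean of the ISO libraries of its own batch for 5 of the 6 genes, and 5 of 6 libraries were for Sfrp1. On the CPM scale the same held but for Frzb, where ISO+100 nm PS replicate 5, with 5.86 CPM, was below that mean. At an adjusted p (Benjamini-Hochberg) under 0.05, 2 of the 6 genes, Sfrp2 and Dkk3, were called higher, where 3.88% of all genes tested were called higher and 9.57% in either direction. Nothing is read from that count, since this contrast picked the genes. For none of the 6 genes did the groups separate without overlap, as they did in the higher direction for 1.63% of all genes.

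The size of the Dkk3 difference at 100 nm rested in part on 1 library. Without ISO+100 nm PS replicate 1 its log2 fold change was 1.68, and that of Sfrp5 was 0.51. Dkk3 was called in 6 of the 18 fits that left out 1 library each. Sfrp2 was called in all 18, with log2 fold changes from 2.21 to 2.73. Nothing is read from these calls, since this contrast picked both genes. Within batch 1 alone the log2 fold changes were 3.70 for Dkk3 and 3.21 for Sfrp2, and within batch 2, where ISO+100 nm PS has 1 library, 0.83 and 1.60. With the GC content of the genes adjusted for in every library, the log2 fold changes were 2.31 for Dkk3 and 2.23 for Sfrp2, 0 of the 6 genes were called, and 1 gene was called in the whole table.

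The comparison of ISO+1 µm PS with ISO did not choose the genes, although it uses the same 6 ISO libraries. All 6 fitted differences were above 0 and none passed the test, where 2.89% of all genes tested passed as higher and 7.39% in either direction. Nor did the groups separate without overlap for any of the 6, as they did for 1.12% of all genes upwards and 0.424% downwards. Sfrp2 came nearest to passing, at a log2 fold change of 1.47 (SE 0.51, 95% interval 0.36 to 2.57, adjusted p = 0.0795 in edgeR), and all 6 ISO+1 µm PS libraries were above the mean log2 CPM of the ISO libraries of their batch. DESeq2's Wald test on the same model called Sfrp2, at 1.44 on the log2 scale and an adjusted p of 0.0199. That test called 2322 genes of the whole table at 1 µm, where edgeR called 1081. Sfrp2 was the 1 gene of the 6 with an unadjusted p under 0.05 in edgeR, a level that 3943 of the 14623 genes reached.

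Wnt9a followed with 0.93 on the log2 scale (SE 0.49, 95% interval -0.11 to 1.98, adjusted p = 0.223 in edgeR), with 6 of 6 libraries above the ISO mean of their batch on the log2 CPM scale. Without ISO replicate 2, the library with no count of Wnt9a, the log2 fold change was 0.62 at 1 µm and 0.38 at 100 nm. Dkk3 had 1.09 (SE 0.72, 95% interval -0.46 to 2.63, edgeR adjusted p = 0.342), with 5 of 6 libraries higher on that scale. For Frzb the value was 0.59 (SE 0.43, adjusted p = 0.397), for Sfrp1 0.38 (SE 0.28, adjusted p = 0.403) and for Sfrp5 0.31 (SE 0.66, adjusted p = 0.799). The intervals of Dkk3 and Wnt9a at 1 µm hold both no difference and the values fitted at 100 nm, 2.54 for Dkk3 and 0.73 for Wnt9a. The median log2 fold change of the 6 genes was 0.76, beside -0.00 over all genes tested. The set was chosen on differences from the same ISO libraries, so that median is not independent of the choice.

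The batches gave different values for several of these genes at 1 µm. Dkk3 had a log2 fold change of 2.40 (SE 0.86) in batch 1, where 4 libraries of ISO+1 µm PS with 10.4 to 26.6 CPM faced 3 of ISO with 2.45 to 4.38 CPM. In batch 2 it was -0.44 (SE 0.44), where 2 libraries with 3.12 and 6.24 CPM faced 3 with 3.26 to 8.32 CPM. Sfrp2 had 2.29 in batch 1 and 0.40 in batch 2, and Frzb 0.98 and -0.05. Wnt9a had 1.05 (SE 0.81) in batch 1, which holds the ISO library with no count of it, and 0.76 (SE 0.34) in batch 2. A term for the log2 fold change at 1 µm in batch 2 minus that in batch 1 was added after these values were seen. This term was -2.82 for Dkk3 (unadjusted p = 0.0331 and adjusted p = 0.269 in edgeR) and -1.88 for Sfrp2 (adjusted p = 0.348). It passed for none of the 6 genes.

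**Figure D2:**
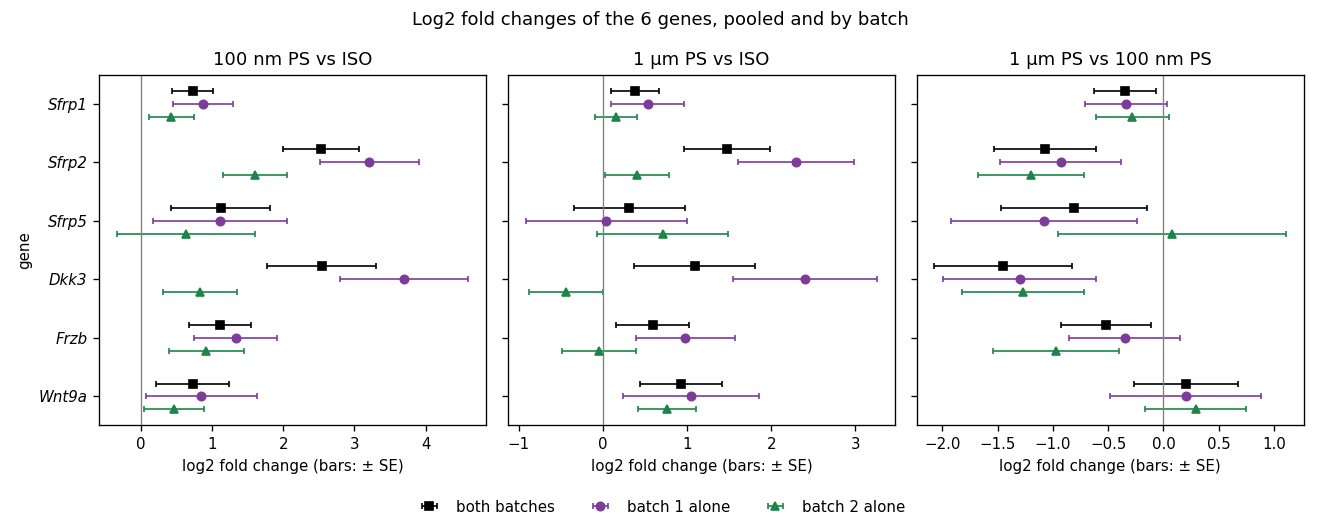
Log2 fold change of each gene with its standard error (x axis) for 100 nm PS against ISO, 1 µm PS against ISO and 1 µm against 100 nm PS, from all libraries (squares), batch 1 alone (circles) and batch 2 alone (triangles). Dkk3 at 1 µm is 2.40 in batch 1 and -0.44 in batch 2, while the batches lie close together for Wnt9a. For Wnt9a batch 1 includes ISO replicate 2, which had no count of it, and the batch 1 SE at 1 µm is 0.81.

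Between the particle sizes no gene of the 14623 passed the test in edgeR or DESeq2, and 49 had an unadjusted p under 0.05 in edgeR. The sizes did not separate without overlap for any of the 6 genes, and did for 0.00684% of all genes upwards and 0.0274% downwards. Dkk3 and Sfrp2 were both among the 49, with 1 µm against 100 nm log2 fold changes of -1.45 (SE 0.62, 95% interval -2.77 to -0.13, unadjusted p = 0.0300) and -1.07 (SE 0.46, 95% interval -2.05 to -0.08, unadjusted p = 0.0315), and both had an edgeR adjusted p of 1.00. The ISO+100 nm PS libraries of this comparison are those on which both genes were chosen, so a lower value at 1 µm is not independent of that choice. Without ISO+100 nm PS replicate 1 the Dkk3 value was -0.46. For Wnt9a the value was 0.20 (SE 0.47, 95% interval -0.81 to 1.22), for Sfrp1 -0.35 (SE 0.28), for Frzb -0.52 (SE 0.41) and for Sfrp5 -0.81 (SE 0.66).

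The other genes of the pathway were counted from 7 lists of 102 genes, 75 of which were tested. At 100 nm 7 were higher and 1 was lower, and at 1 µm 5 were higher and 1 was lower, where over all genes 3.88% were higher and 5.69% lower at 100 nm, and 2.89% and 4.50% at 1 µm. The median log2 fold change was 0.38 at 100 nm and 0.37 at 1 µm, beside -0.02 and -0.00 over all genes. Both contrasts use the same ISO libraries. Without ISO+100 nm PS replicate 6, the only library of that group in batch 2, 2 of the 75 passed at 100 nm, and after the GC correction none did at either size. Over all genes the calls were also fewer, 1 at 100 nm and 2 at 1 µm after the GC correction, and 170 at 100 nm without ISO+100 nm PS replicate 6.

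Of 18 other Wnt ligands 7 were tested and 1 passed, at 100 nm. Wnt10b, which signals through beta-catenin and is known for holding back fat cell formation, was scarce, with 0.421, 0.691 and 1.56 CPM (lowest, median and highest) in ISO+100 nm PS and 0, 0.145 and 0.855 CPM in ISO. It rose by 2.03 on the log2 scale at 100 nm (SE 0.61, adjusted p = 0.0455 in edgeR) and had 1.89 at 1 µm (adjusted p = 0.0543), and the call at 100 nm held in 4 of the 18 fits that left out 1 library. With the GC correction it had 1.83 at 100 nm and 1.71 at 1 µm. Wnt5a, a ligand that mostly acts outside the beta-catenin branch, had log2 fold changes of -0.14 at 100 nm and 0.03 at 1 µm. Wnt2, a ligand known from lung and heart development, had 1.17 and 0.75 with adjusted p of 0.245 and 0.476. Without ISO replicate 1, which had 1.14 CPM where the other ISO libraries had at most 0.295 CPM, Wnt2 had 2.41 at 100 nm and passed there, and 1.85 at 1 µm without passing.

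Of 15 other antagonists 8 were tested and none passed at either size. Wif1, a secreted inhibitor that binds Wnts directly, stood at 1.15, 9.70 and 14.5 CPM (lowest, median and highest) in ISO+100 nm PS, 0.836, 4.63 and 10.5 CPM in ISO+1 µm PS, and 1.48, 3.63 and 7.56 CPM in ISO. Its log2 fold changes were 1.20 and 0.55, with edgeR adjusted p of 0.213 at 100 nm and 0.590 at 1 µm. Sfrp4, the remaining secreted frizzled-related protein, averaged 0.359 ± 0.155 CPM in ISO+100 nm PS, 0.394 ± 0.282 CPM in ISO+1 µm PS and 0.209 ± 0.240 CPM in ISO (SD, n = 6 each) and was too low to be tested. Dkk2, a Dickkopf that binds Lrp6, was also too low, with group means from 0.214 to 0.540 CPM.

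Among 16 Wnt receptors 15 were tested and 1 passed, at 100 nm. Fzd2, a Frizzled receptor, stood at 7.75, 12.9 and 18.6 CPM (lowest, median and highest) in ISO+100 nm PS and 4.63, 5.88 and 10.7 CPM in ISO, and rose by 1.11 on the log2 scale (SE 0.30, adjusted p = 0.0305 in edgeR). At 1 µm its log2 fold change was 0.92 (adjusted p = 0.0535), and 0.59 without ISO+1 µm PS replicate 5, which had 26.1 CPM. The GC correction left Fzd2 at 0.62 at 100 nm and 0.46 at 1 µm. Fzd1, another Frizzled receptor, had 1.03 and 1.01 without passing, with an adjusted p of 0.226 at either size. Its values were 0.65 and 0.68 without ISO replicate 2, which had no count of Fzd1. The 6 tested genes of 11 for R-spondins, their Lgr receptors and Wnt secretion had medians of -0.02 and -0.06, and none passed.

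All 21 genes of the beta-catenin branch inside the cell were tested, and its calls went both ways. Tcf7l1, a TCF factor that mostly represses target genes, rose at both sizes, by log2 fold changes of 1.22 at 100 nm (SE 0.27, edgeR adjusted p = 0.0166) and 1.15 at 1 µm (adjusted p = 0.0199). It stood at 17.1, 21.3 and 30.0 CPM (lowest, median and highest) in ISO+100 nm PS, 18.1, 20.7 and 29.6 CPM in ISO+1 µm PS, and 2.47, 12.4 and 20.3 CPM in ISO, where only the highest ISO library reached into the particle groups. Pygo2, a partner of the beta-catenin complex on chromatin, rose by 0.64 and 0.63 (adjusted p of 0.0214 and 0.0244). With the GC correction Tcf7l1 had log2 fold changes of 0.71 at 100 nm and 0.67 at 1 µm, and Pygo2 only 0.10 and 0.11.

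Pygo1, the paralogue of Pygo2, went the other way and fell by 0.87 at 100 nm and by 0.78 at 1 µm on the log2 scale (edgeR adjusted p = 0.0169 and 0.0257). It stood at 9.84, 12.4 and 15.3 CPM (lowest, median and highest) in ISO+100 nm PS, 9.83, 13.4 and 20.0 CPM in ISO+1 µm PS, and 16.1, 23.5 and 33.4 CPM in ISO. All ISO+100 nm PS libraries were below all ISO libraries, a separation that 0.745% of all genes tested showed in this direction. With the GC correction its log2 fold changes were -0.90 and -0.77, without passing. Apc2, a relative of the Apc tumour suppressor found mainly in nerve tissue, passed at 1 µm, with 1.06 (adjusted p = 0.0361, and 0.0774 at 100 nm with 0.85), and the call held in 8 of the 18 fits that left out 1 library, not in that without ISO+1 µm PS replicate 5, which had 22.6 CPM. The GC correction left Apc2 at 0.54 at 1 µm and 0.31 at 100 nm.

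Of 16 target genes 13 were tested, and Nkd2, a feedback inhibitor that binds Dishevelled, was the 1 that passed. It stood at 3.69, 6.38 and 7.44 CPM (lowest, median and highest) in ISO+100 nm PS, 3.40, 3.67 and 6.67 CPM in ISO+1 µm PS, and 2.06, 2.83 and 3.42 CPM in ISO. It rose by a log2 fold change of 1.10 at 100 nm (edgeR adjusted p = 0.0171), where its groups did not overlap, and had 0.61 at 1 µm (adjusted p = 0.118), or 0.77 and 0.29 with the GC correction. Axin2, the most widely used readout of beta-catenin signalling, averaged 3.87 ± 1.77 CPM in ISO+100 nm PS, 3.72 ± 2.85 CPM in ISO+1 µm PS and 3.12 ± 1.07 CPM in ISO (SD, n = 6 each). Its log2 fold changes were 0.51 at 100 nm (adjusted p = 0.399 in edgeR) and 0.24 at 1 µm (adjusted p = 0.709). Without ISO+1 µm PS replicate 5, which had 9.47 CPM, its value at 1 µm was -0.24.

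The Ccn genes, secreted matrix proteins named as Wnt targets, did not pass. Ccn5 had log2 fold changes of 1.32 at 100 nm (edgeR adjusted p = 0.0706) and 0.78 at 1 µm (adjusted p = 0.263), with medians of 53.1 CPM in ISO+100 nm PS, 36.9 CPM in ISO+1 µm PS and 13.0 CPM in ISO. Ccn4 had 1.38 and 0.59 (adjusted p of 0.162 and 0.560), and 1.00 and 0.25 without ISO replicate 2, which had no count of it. Lef1, a factor that is both partner and target of beta-catenin, was too low to be tested, with group means from 0.0496 to 0.217 CPM.

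The procollagen C-proteinase genes, listed because Sfrp2 has been reported to act on that protease, were all 5 tested, and 2 passed at both sizes. Bmp1, the protease that trims the C-terminal propeptide from fibrillar procollagens, stood at 50.0, 66.7 and 77.1 CPM (lowest, median and highest) in ISO+100 nm PS, 48.8, 59.6 and 73.9 CPM in ISO+1 µm PS, and 25.3, 37.7 and 52.3 CPM in ISO. It rose by 0.89 at 100 nm (edgeR adjusted p = 0.0125) and by 0.73 at 1 µm (adjusted p = 0.0257) on the log2 scale. Pcolce, the enhancer of that reaction, rose by 1.12 and 0.95 (adjusted p of 0.0165 and 0.0282), with medians of 135 CPM in ISO+100 nm PS, 118 CPM in ISO+1 µm PS and 65.2 CPM in ISO. The batches differed at 1 µm, where Bmp1 had 1.08 in batch 1 and 0.18 in batch 2, and Pcolce 1.5 and 0.18. Of the 18 fits that left out 1 library, the call at 1 µm held in 14 for Bmp1 and 13 for Pcolce. At 100 nm it held in 17 and 18. After the GC correction Bmp1 had 0.41 at 100 nm and 0.26 at 1 µm, and Pcolce 0.75 and 0.59. In both genes ISO replicate 5 alone reached into the range of the particle groups.

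**Figure D3:**
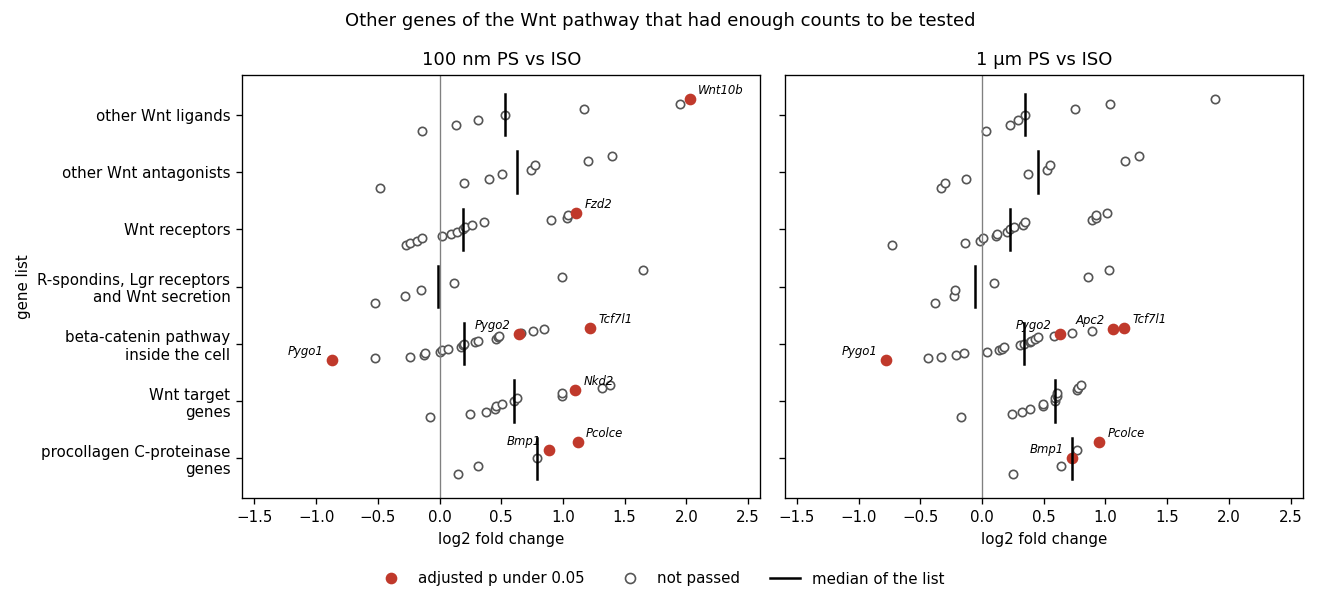
Log2 fold change (x axis) of 75 tested genes of the Wnt pathway in 7 lists (y axis), for 100 nm PS against ISO (left) and 1 µm PS against ISO (right), with filled points for genes past an adjusted p of 0.05 and a black line at the median of each list. At 100 nm 7 genes are higher and 1 is lower, at 1 µm 5 are higher and 1 is lower, and Pygo1 is the gene called lower in both.

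Some markers of fibroblasts, and some of other cell types, differed between the same groups as the antagonists. The 10 summed fibroblast markers had a median of 4250 CPM in ISO+100 nm PS, 3920 CPM in ISO+1 µm PS and 2930 CPM in ISO, and 4 of 10 passed at 100 nm and 1 of 10 at 1 µm, all higher. The 8 summed markers of activated fibroblasts stood at 158, 496 and 986 CPM (lowest, median and highest) in ISO+100 nm PS, 130, 242 and 806 CPM in ISO+1 µm PS, and 75.8, 128 and 190 CPM in ISO, with 4 of 8 higher at 100 nm and 0 of 8 at 1 µm. No marker of either list was at 0 throughout a group. Of 8 smooth muscle and pericyte markers 3 were higher at both sizes, and of 8 endothelial markers 2 were higher at 100 nm and 0 at 1 µm. Of the 4 tested markers in the list named skeletal muscle, 2 were lower at 100 nm and 0 at 1 µm. That list summed to at least 915 CPM in every library, and it is not read as a sign of skeletal muscle tissue. None passed at either size among the markers tested for ventricular myocytes, mesothelium and epicardium, Schwann cells and neurons, macrophages, lymphocytes, adipocytes or erythroid cells. Only 1 of 6 adipocyte and 4 of 8 lymphocyte markers were tested. Over all genes 3.88% passed as higher and 5.69% as lower at 100 nm, and 2.89% and 4.50% at 1 µm. In the whole table only 1 gene was called at 100 nm and 2 at 1 µm with the GC correction, and 0 with no batch term. At 100 nm the median log2 fold change was 1.89 for mesothelium and epicardium and -1.34 for erythroid cells. The adipocyte marker tested had 3.64. The part of these cell types in the results for the 6 genes was not tested.

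The level of Sfrp2 and the summed level of the activated fibroblast markers were highest in the same library. ISO+100 nm PS replicate 4 had 52.2 CPM of Sfrp2 beside 986 CPM of markers, and ISO+100 nm PS replicate 5 had the lowest of its group in both, 5.66 CPM beside 158 CPM. Per 1000 CPM of activated fibroblast markers, Sfrp2 had 32.5, 49.6 and 58.1 CPM (lowest, median and highest) in ISO+100 nm PS, 26.2, 39.7 and 64.5 CPM in ISO+1 µm PS, and 12.3, 27.9 and 44.2 CPM in ISO. Those ranges overlapped. Per 1000 CPM of the general fibroblast markers it had 1.76, 5.14 and 12.7 CPM in ISO+100 nm PS, 1.61, 2.32 and 5.19 CPM in ISO+1 µm PS, and 0.642, 1.05 and 1.98 CPM in ISO. Dkk3 per 1000 CPM of activated fibroblast markers had a median of 37.8 CPM in ISO+100 nm PS, 46.9 CPM in ISO+1 µm PS and 32.9 CPM in ISO. It ran from 29.6 to 274 CPM in ISO+100 nm PS and from 27.2 to 51.4 CPM in ISO. The other members had lower medians in ISO+100 nm PS than in ISO on this scale. Sfrp1 had 67.5 CPM in ISO+100 nm PS and 121 CPM in ISO, and Frzb 30.8 and 48.2 CPM. Wnt9a had 9.87 and 31.9 CPM, and Sfrp5 3.01 and 8.01 CPM. Per general fibroblast markers only Wnt9a had a lower median.

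Atrial markers were high in the library with the most Dkk3. The 8 summed atrial myocyte markers reached 3620 CPM in ISO+100 nm PS replicate 1, the library with 139 CPM of Dkk3 and 6.57 CPM of Sfrp5, and stood between 400 and 993 CPM in the other libraries of the group, 313 and 999 CPM in ISO+1 µm PS, and 190 and 984 CPM in ISO. Of the 6 atrial markers with enough counts to be tested, 1 passed as higher and 1 as lower at 100 nm, and 0 and 1 at 1 µm. Of the 8 atrial markers 1 had no count in any ISO library, and none was at 0 throughout a particle group. The other 4 ISO+100 nm PS libraries with Dkk3 above the ISO range had 11.1 to 37.2 CPM of it, with Myl4 between 2.58 and 5.90 CPM. Mesothelial and epicardial markers had medians of 71.6 CPM in ISO+100 nm PS, 53.1 CPM in ISO+1 µm PS and 20.5 CPM in ISO, with 0 of 8 past the test at either size and 145 CPM in 1 ISO library. Their highest sum, 174 CPM, was in ISO+100 nm PS replicate 1. That library also had the highest sum of 6 adipocyte markers, 85.4 CPM, where every other library had at most 5.89 CPM. The part of these cell types in the Dkk3 and Sfrp5 levels was not tested.

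**Figure D4:**
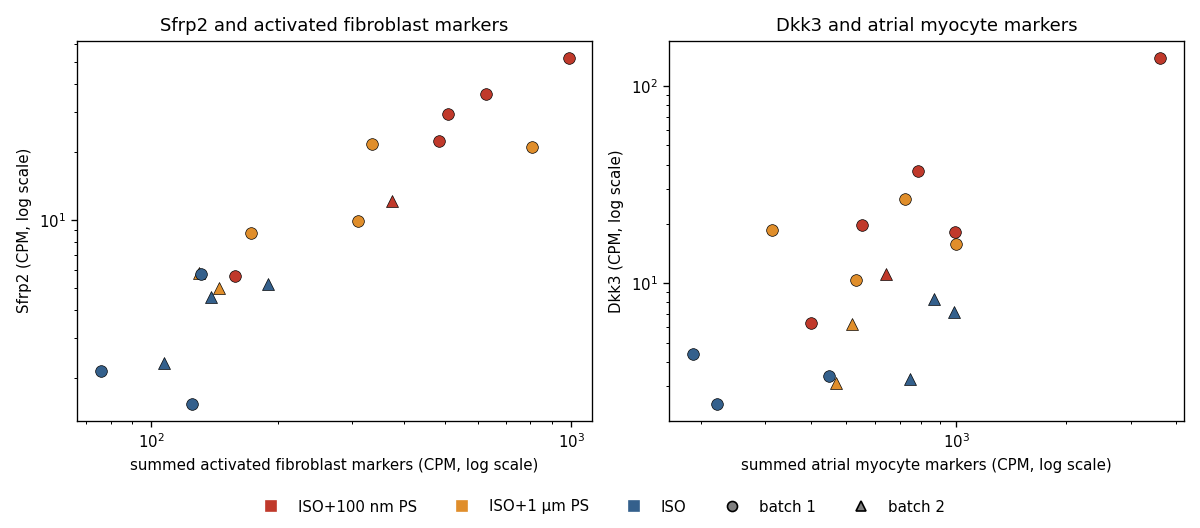
Sfrp2 in CPM against the sum of 8 activated fibroblast markers (left) and Dkk3 in CPM against the sum of 8 atrial myocyte markers (right), all on log axes, with 1 point per library, colours for the groups, circles for batch 1 and triangles for batch 2. Sfrp2 is highest, at 52.2 CPM, in the library with the highest marker sum, and the library with 139 CPM of Dkk3 is the one with 3620 CPM of atrial markers.

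The 6 genes did not share 1 profile over the libraries. Likeness was measured as the mean absolute difference of log2 CPM centred within batch and scaled to an SD of 1, over 18 libraries, and the genes were chosen from 12496 tested genes with at least 1 CPM on average. Within the set Sfrp2 and Frzb were closest, at 0.36 SD, followed by Sfrp1 and Sfrp2 at 0.38 SD, and Sfrp5 and Dkk3 were farthest apart, at 0.90 SD. Over all 12496 genes the median distance was 1.02 SD from Sfrp2 and 0.97 SD from Sfrp5.

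The 3 nearest genes of each member are given as a description. The collagen genes Col3a1 and Col1a2 (both 0.20 SD) and Col14a1 (0.23 SD) were nearest to Frzb. Ltbp2, a binding protein of latent TGF-beta complexes (0.24 SD), the cartilage matrix gene Comp (0.26 SD) and the collagen gene Col8a2 (0.29 SD) were nearest to Sfrp2, and Ltbp2 and Comp are also in the activated fibroblast list. Col12a1 (0.28 SD), Col8a2 (0.31 SD) and the collagen-binding receptor Antxr1 (0.33 SD) were nearest to Sfrp1, and Pamr1 (0.31 SD), Col14a1 (0.32 SD) and Ccdc80 (0.32 SD) to Dkk3.

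The nearest genes of Sfrp5 were the nuclear receptor gene Nr4a1 (0.39 SD) and the potassium channel genes Kcna6 and Kcnk6 (both 0.40 SD). Those of Wnt9a were the guidance factor gene Slit3 (0.13 SD), the synapse gene Insyn1 (0.14 SD) and Taf6, a subunit of a general transcription factor (0.14 SD), at a median of 0.90 SD over all candidates. The Wnt9a profile holds the count of 0 in ISO replicate 2, and what it contributes to these distances was not tested.

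The GC content of the transcripts set Sfrp5 and Wnt9a apart from the rest. It was 60.3% for Sfrp5 and 56.4% for Wnt9a, above that of 96.4% and 84.1% of the genes tested, and between 50.3% and 52.9% for Frzb, Sfrp1, Dkk3 and Sfrp2, near the median of 49.8%. After that adjustment for GC content the log2 fold changes were 0.45 at 100 nm and -0.27 at 1 µm for Sfrp5, and 0.35 and 0.57 for Wnt9a.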

How the data were processed

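Poly(A) RNA of 18 hearts, extracted with TRIzol, was sequenced as paired-end libraries by 2 providers, per the labels' protocols. The table of batch 1 deposited by the authors gives raw counts per gene, and that of batch 2 gives estimated counts, 19.6% of whose nonzero values are not whole and which were rounded. Tools named in the submitters' processing notes, without roles, are featureCounts 1.5.0-p3, StringTie 1.3.3b, HISAT2 2.0.5, DESeq2 and fastp, with the builds GRCm39 and mm39. The counter of batch 2 and strand settings are not given in the sources used here.

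Of the batch 1 entries, 215 without a gene name (0.16% to 0.39% of a library's counts) were left out, as were 1606 of batch 2 (0.10% to 0.15%). The 35560 genes common to both tables, 22144 by paired IDs and 13416 by symbol, held 98.9% to 99.5% of the counts in batch 1. In batch 2 they held 93.1% to 95.8% in PS libraries and 85.2% to 87.4% in ISO libraries. No pair among 23 library pairs looked like a duplicate.

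The main test was that of edgeR 4.0.16 (R 4.3.3), with TMM factors, filterByExpr with a minimum count of 10, and a robust quasi-likelihood fit of group and batch to all 18 libraries (14 residual degrees of freedom), adjusted over 14623 genes. The code was tested on simulated data. The SE is the log2 fold change over the square root of F, and intervals use the t distribution. CPM were taken over the tested genes, with library sizes scaled by TMM. Length and GC content come from the longest GENCODE M21 transcript (99.8% of genes tested). P-values set group differences against the spread between these libraries, each taken as 1 mouse. Alternatives used DESeq2 1.42.0 and limma 3.58.1, other factors, filters and library sets, and a GC spline with 5 degrees of freedom. Besides the 6 genes, the text names 12 pathway genes in every case, up to 4 genes per list with the smallest p that passed, the 3 nearest profiles per gene and 2 atrial genes. The genes, lists and rules were chosen with earlier results of these data known.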

Additional observations from a re-analysis of the deposited data

Results flagged for a closer look

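Among 75 sets of 6 libraries (25 genes in 3 groups), 11 held a library far from the other 5. The rule flags about 1 in 20 independent sets of normally distributed values. These sets share libraries and hold CPM, so their count is not set against chance. Of the antagonists, Dkk3 had 139 CPM in ISO+100 nm PS replicate 1 (6.31 to 37.2 CPM in the other 5 libraries) and Sfrp5 had 6.57 CPM in the same library (1.17 to 1.74 CPM). That library also stood out for Dkk2, with 1.74 CPM against 0.123 to 0.681 CPM, and for Axin2, with 7.32 CPM against 2.61 to 3.88 CPM.

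ISO+1 µm PS replicate 5, the library with the most Wnt9a of its group (10.2 CPM), stood out for 4 genes. It had 9.47 CPM of Axin2 (1.79 to 3.0 CPM in the other 5), 26.1 CPM of Fzd2 (7.91 to 13.6 CPM), 16.1 CPM of Wnt5a (5.07 to 7.41 CPM) and 22.6 CPM of Apc2 (9.04 to 11.4 CPM).

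ISO+100 nm PS replicate 5, the library of its group with the least Sfrp2 and Dkk3, had 3.69 CPM of Nkd2, against 6.09 to 7.44 CPM in the others. In ISO, replicate 6 had 0.825 CPM of Dkk2 (0 to 0.221 CPM) and replicate 1 had 1.14 CPM of Wnt2 (0 to 0.295 CPM).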

How the results depend on the processing

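At 100 nm, 2 of the 6 genes were called in the model reported. The count was 1 with no filter and with only the groups compared, 0 with limma voom, no batch term, batch 2 alone, the replicate block, the GC correction and without ISO replicates 1 and 2 together, and 1 to 2 when each library was left out in turn. At 1 µm, 0 were called, 1 with DESeq2 and 1 at an adjusted p under 0.1 (Sfrp2 in both), and 0 whichever library was left out. Between the sizes 0 were called in every setting run.

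Of the 75 pathway genes 8 were called at 100 nm, 14 with DESeq2, 15 at an adjusted p under 0.1, 4 with only the groups compared, 2 without ISO replicates 1 and 2, 0 with no batch term, batch 2 alone, the replicate block or the GC correction, and 2 to 11 with 1 library left out. At 1 µm 6 were called, 10 with DESeq2, 10 at an adjusted p under 0.1, 2 without ISO replicates 1 and 2, 0 with only the groups compared, no batch term, batch 2 alone, the replicate block or the GC correction, and 1 to 13 with 1 library left out. The cause was not tested. Over all genes, 1399 and 1081 were called at 100 nm and 1 µm, 2607 and 2322 with DESeq2, 717 and 481 with no filter, 364 and 0 with only the groups compared, and 0 and 0 with no batch term or the replicate block. With 1 library left out, from 170 (without ISO+100 nm PS replicate 6) to 2283 (without ISO replicate 3) were called at 100 nm, and from 265 (without ISO+1 µm PS replicate 1) to 2334 (without ISO replicate 3) at 1 µm.

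At 1 µm the sign turned for Axin2 with voom (-0.07), batch 1 alone (-0.25) and the GC correction (-0.14). It turned for Wnt5a with voom (-0.26), batch 1 alone (-0.41), only the groups compared (-0.03) and without ISO replicates 1 and 2 (-0.01). It also turned for Ccn4 with voom (-0.13), for Ccn5 (-0.56), Dkk3 (-0.44) and Frzb (-0.05) in batch 2 alone, and for Sfrp5 with the GC correction (-0.27). Between the sizes Sfrp5 turned in batch 2 alone (0.08). With 1 library left out, Wnt5a ran from -0.34 to 0.08 at 100 nm and from -0.39 to 0.22 at 1 µm, Axin2 from -0.24 to 0.46 and Sfrp5 from -0.29 to 0.71 at 1 µm. A batch or group left with 1 library was assumed to vary like the others. With group and batch fitted, same-numbered libraries of 2 groups had correlations from -0.44 to 0.23, and 0 libraries matched their own replicate number best. Such values cannot show that no mice were linked. Depth limits Sfrp5, Wnt10b, Wnt2 and the genes too low to be tested.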
